A study of Mus musculus with 2 samples.

Results

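The insulin-like growth factor (IGF) axis was read through 10 genes, listed by name: the ligand genes Igf1 and Igf2, the receptor genes Igf1r and Igf2r, and the binding-protein genes Igfbp2, Igfbp3, Igfbp4, Igfbp5, Igfbp6 and Igfbp7. All 10 were among the 32285 genes of the count tables. IGF-I and IGF-II are small secreted hormones that promote growth and survival by activating the tyrosine kinase receptor encoded by Igf1r, whereas the receptor encoded by Igf2r takes IGF-II up for degradation in lysosomes. IGF binding proteins hold the ligands in tissue fluid and matrix and can block or prolong their action until proteases such as the Pappa product release them. In bone, growth hormone and locally made IGF-I both contribute to bone mass, and cells of the stromal and osteoblast lineage secrete several of the binding proteins.

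The cells came from the femurs and tibias of 3 male INK-ATTAC mice, 24 months old and untreated, which carry an inducible caspase 8 transgene under a p16Ink4a promoter that was not activated here. Marrow and digested bone were combined, depleted of lineage-positive blood cells with magnetic beads, and sorted by FACS as live CD45-negative cells. The mice were pooled before droplet capture, and 10x Chromium 3′ libraries were run in 2 lanes, with 116827845 unique molecular identifiers (UMIs, each tagging a captured transcript) in lane 1 and 120556381 in lane 2. The sample titles call these lanes rep1 and rep2. The lanes shared 10928 of 11056 barcodes and so held the same cells, which leaves 1 biological sample and no test between animals, ages or treatments. UMIs were therefore summed per barcode, although a transcript may be counted in both lanes, and the 9573 barcodes with at least 200 genes and at most 20% mitochondrial UMIs were kept. Levels are given in CPM, the UMIs of a gene in a class of cells scaled to a total of 1000000 UMIs for that class, and their 95% intervals (exact Poisson on the mean of the lanes) cover counting error only. Because each molecule is counted at its 3′ end, levels of different genes are set side by side without scaling to transcript length.

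LEPR stromal cells, the marrow stroma that expresses the leptin receptor, were defined by a gate of at least 1 Lepr UMI and at least 5000 CPM of Cxcl12. The gate held 1877 cells (19.6% of those kept) with a median of 5188 UMIs. Apart from Lepr and Cxcl12, which form the gate, all 10 other genes of the LEPR+ stromal marker list reached 10 CPM in them, with a summed 14997 CPM, against 827 CPM in fibroblast-like, 554 in endothelial-like, 123 in megakaryocyte-like and 12.8 in erythroid-like cells. The other classes were clusters named from marker lists, and they held 146 fibroblast-like, 63 endothelial-like, 147 megakaryocyte-like and 6391 erythroid-like cells, with median depths of 8414.5, 3185, 8863 and 28455 UMIs. A further 886 cells sat in unnamed clusters, 46 were plasma cell-like, and 17 lay in the LEPR cluster outside the gate. The label calls the sorted cells mesenchymal, yet 66.8% of those kept were erythroid-like. All 14 erythroid markers also reached 10 CPM in endothelial-like, fibroblast-like and megakaryocyte-like cells, and 13 did in LEPR stromal cells. They summed to 11867 CPM in endothelial-like, 6626 in megakaryocyte-like, 6311 in fibroblast-like and 2122 in LEPR stromal cells, against 27658.5 in erythroid-like cells. Endothelial-like cells had 5460 CPM of their own list. The part of this RNA in the levels of members was not tested. Scrublet called 194 of 9514 lane 1 cells doublets (2.04%), of which 50 were in the LEPR gate, and they were kept. At the edge of the gate, 61 cells just inside it (5000 to 7000 CPM of Cxcl12) had 4523 CPM of Igfbp5 and 1159 of Igfbp4, and 77 cells just outside (3000 to 5000 CPM) had 1365 and 679.

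Igf1 encodes IGF-I. Its level in LEPR stromal cells was 226 CPM in lane 1 and 220.3 in lane 2, or 223 over both (95% interval 211 to 236). In fibroblast-like cells the lanes gave 218 and 232 CPM, or 225 over both (194 to 259). The intervals overlapped and the log2 ratio of LEPR stromal over fibroblast-like cells was -0.01 (-0.23 to 0.22), so summed UMIs showed no detectable difference in Igf1 between these stromal classes at this depth. The ratio was lower, beyond that interval but under 2-fold, at resolution 1.2 (-0.394), with CPM averaged cell by cell and, in an alternative chosen after seeing the data, without the fibroblast-like cells that had a UMI of Bglap or Rgs5. Igf1 then dropped to 2.87 CPM in megakaryocyte-like cells, to 2.60 CPM in endothelial-like cells, where it rested on 1 UMI, and to 0.145 CPM in erythroid-like cells, 3 levels whose neighbouring intervals overlapped. Some Igf1 was seen in 48.1% of LEPR stromal cells, which had a median depth of 5188 UMIs, against 0.422% of the erythroid-like cells with their median of 28455. Shares at equal depth use lane 1 alone and cover only the cells with at least 2000 UMIs in it, 1295 of the LEPR stromal and 5887 of the erythroid-like cells, each thinned to 2000, and for Igf1 they were 32.2% and 0.0510%. Igf1 transcripts were thus found mainly in the stromal classes, and of all Igf1 UMIs in the kept cells 79.4% lay in LEPR stromal and 12.5% in fibroblast-like cells.

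Igf2, which encodes IGF-II and is imprinted, was the lower of the ligand genes in LEPR stromal and fibroblast-like cells. LEPR stromal cells had 60.2 CPM in lane 1 and 60.7 in lane 2, and fibroblast-like cells 27.9 and 30.6. The log2 ratio between them was 1.05 (0.46 to 1.70), close to the 2-fold limit that was used for calling a difference. An Igf2 UMI was seen in 18 fibroblast-like cells, 1 of which held 32.7% of the class's Igf2 UMIs, and without that cell the fibroblast-like level was 19.8 CPM in place of 29.2, further from the LEPR stromal level. With CPM averaged cell by cell, however, the fibroblast-like level was 47.5 CPM and the log2 ratio 0.47, under 2-fold. Endothelial-like cells had 13.0 CPM from 5 UMIs, an interval of 2.16 to 41.7 that overlapped that of the fibroblast-like cells. No Igf2 UMI was found in 147 megakaryocyte-like cells, which allows up to 1.72 CPM and up to 2.04% of these cells with a UMI, and the LEPR stromal level was 35.2-fold that CPM limit. Igf2 was detected in 16.4% of LEPR stromal and 0.188% of erythroid-like cells, and in 9.27% and 0.0170% of those thinned to 2000 UMIs. In LEPR stromal cells Igf1 therefore exceeded Igf2, and both lay far below Igfbp5, Igfbp4 and Igfbp7, with ranks of 551 and 2745 among the 17736 genes that had a UMI there.

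Igf1r, the signalling receptor, was spread across all 5 classes. Its levels were 99.9 CPM in LEPR stromal (lanes 101 and 99.3), 84.7 in fibroblast-like, 54.7 in endothelial-like, 34.7 in megakaryocyte-like and 16.5 CPM in erythroid-like cells (lanes 16.7 and 16.4). Each neighbouring pair in that order had overlapping intervals except the last, so the classes from LEPR stromal to megakaryocyte-like cells were not told apart step by step. Compared directly, LEPR stromal over endothelial-like cells had a log2 ratio of 0.87 (0.0005 to 1.91), under 2-fold. The log2 ratio of Igf1r in LEPR stromal over erythroid-like cells was 2.60 (2.45 to 2.74), the smallest such ratio of the 8 members that could be compared. Since erythroid-like cells were many and deep, they nonetheless held 68.2% of all Igf1r UMIs, against 21.4% in LEPR stromal cells. Igf1r was detected in 31.4% of LEPR stromal and 26.5% of erythroid-like cells, and at 2000 UMIs per cell in 18.4% and 3.92%, so the raw shares were near each other only while depth was unequal.

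Igf2r, the clearance receptor for IGF-II, had 80.5 CPM in fibroblast-like (lanes 84.8 and 76.4) and 71.4 in LEPR stromal cells (lanes 73.2 and 69.5), and these levels could not be separated, with a log2 ratio of -0.17 (-0.55 to 0.22). Endothelial-like cells followed with 28.6 CPM from 11 UMIs, and erythroid-like cells with 10.1 CPM. Megakaryocyte-like cells had 3 UMIs of Igf2r, or 0.860 CPM (0.0619 to 3.68), under the erythroid-like level. Against megakaryocyte-like cells, LEPR stromal cells differed by 6.37 in log2 units for Igf2r (4.27 to 10.18) but by 1.53 for Igf1r (1.14 to 1.93). In summed UMIs the receptors thus parted in the megakaryocyte-like class, where there were 40.3 Igf1r UMIs per Igf2r UMI (9.05 to 572). Of the 121 Igf1r UMIs, however, 51.2% lay in 5 cells, and 1 cell with 172737 UMIs in total held 20. Thinned to 2000 UMIs, 1.85% of 108 megakaryocyte-like cells had Igf1r (0.225 to 6.53) and none had Igf2r. Cells of this class also carried 7 of 9 neutrophil markers at 10 CPM or more (summed 3182 CPM, Elane highest at 877, 1 marker at 0) and 7 of 8 B cell markers (1458 CPM, Ighm highest at 944, none at 0). All 14 erythroid markers reached 10 CPM in them too (6626 CPM, Hbb-bs highest at 2691), beside 28648 CPM of the megakaryocyte list. The part of such cells or such RNA in the ratio was not tested. Elsewhere the ratio of Igf1r to Igf2r was 1.40 in LEPR stromal (1.23 to 1.60), 1.05 in fibroblast-like, 1.91 in endothelial-like and 1.64 in erythroid-like cells. For Igf2r in LEPR stromal over endothelial-like cells the log2 ratio was 1.32 (0.14 to 2.85), and lane 1 alone gave 0.98, under 2-fold. With CPM averaged cell by cell the endothelial-like level of Igf2r was 70.2 CPM in place of 28.6 and the log2 ratio was -0.029, so the direction of this difference depended on how cells were weighted.

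Binding-protein transcripts dominated the axis in LEPR stromal cells. Igfbp5 encodes a binding protein with strong affinity for bone matrix. It had 8801 CPM in lane 1 and 8844 in lane 2 of LEPR stromal cells, or 8823 over both (8744 to 8903), the rank of 4 among their genes. Igfbp4, whose product mainly restrains IGF action until it is cleaved, had 3881 and 3995 CPM, or 3939 over both (3886 to 3992), and ranked 12. Igfbp7 encodes a secreted protein that binds IGFs weakly and is also found in vessel walls. Its level was 1364 CPM (1333 to 1395), at rank 52. The 6 binding-protein genes together made up 1.44% of all UMIs of LEPR stromal cells, or 14394 CPM, of which Igfbp5 gave 61.3%, Igfbp4 27.4% and Igfbp7 9.47%. Set against Igf1 and Igf2 together, that was 50.8 binding-protein UMIs per ligand UMI. In other classes this ratio was 81.2 in endothelial-like, 59.8 in erythroid-like, 47.1 in megakaryocyte-like and 13.5 in fibroblast-like cells. The ligand counts behind it were 1 Igf1 and 5 Igf2 UMIs in endothelial-like cells and 10 Igf1 UMIs in megakaryocyte-like cells. No interval was computed, so the ratio neither set LEPR stromal cells apart from those classes nor showed them alike.

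Igfbp5 and Igfbp4 both set LEPR stromal cells apart from every other class in level. Fibroblast-like cells had 1262 CPM of Igfbp5 and 496 of Igfbp4, and no interval for either gene overlapped that of LEPR stromal cells. The log2 ratios of LEPR stromal over fibroblast-like cells were 2.81 for Igfbp5 (2.72 to 2.89) and 2.99 for Igfbp4 (2.85 to 3.13). Endothelial-like cells had 200.4 CPM of Igfbp4 and 15.6 of Igfbp5, the latter from 6 UMIs in 6 cells. That low Igfbp5 depended on the gate, which took 1 cell, called a doublet, out of the endothelial cluster. Over all 64 cells of the cluster Igfbp5 was 389 CPM and Igfbp4 241. Lane 1 held 73 Igfbp5 UMIs with that cell and 3 without it. With classes taken from clusters alone, the log2 ratio of Igfbp5 in LEPR stromal over endothelial-like cells was 4.56 in place of 9.14. Of the Igfbp4 UMIs in endothelial-like cells, 41.6% came from 1 cell, without which their level was 118 CPM, while CPM averaged cell by cell gave 339. Igfbp5 was seen in 97.9% and Igfbp4 in 98.0% of LEPR stromal cells, against 14.0% and 11.4% of the deeper erythroid-like cells. Among the cells that could be thinned to 2000 UMIs, the LEPR stromal shares were 97.5% and 98.6%, near the ceiling of this measure, and the erythroid-like shares 1.63% and 1.31%. At 1000 UMIs per cell (1750 cells) the LEPR stromal shares were 94.5% and 90.7%.

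Igfbp7 was shared more widely among non-blood cells. LEPR stromal cells came first, followed by endothelial-like cells with 843 CPM (718 to 983) and fibroblast-like cells with 819 CPM (759 to 883), whose intervals overlapped. The log2 ratios of LEPR stromal cells over these classes, 0.69 and 0.74, lay under 2-fold. In endothelial-like cells Igfbp7 gave 66.5% of the binding-protein UMIs and was detected in 73.0% of these cells, whose median depth was 3185 UMIs, against 3.83% of erythroid-like cells. Its 35.3 CPM in megakaryocyte-like cells came from 5 cells, 1 of which held 48.8% of the UMIs. Igfbp7 was therefore abundant in the endothelial-like class as well as in both stromal classes.

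Igfbp3 encodes the main carrier of circulating IGFs. It had 262 CPM in LEPR stromal cells (248 to 276), 198 in endothelial-like cells (140.0 to 271) and 69.8 in fibroblast-like cells (53.1 to 90.1). The LEPR stromal and endothelial-like intervals overlapped, with a log2 ratio of 0.41 (-0.06 to 0.91). At unequal depth, Igfbp3 was seen in 40.9% of LEPR stromal cells, in 10 of 63 endothelial-like cells and in 18 of 146 fibroblast-like cells. Thinned to 2000 UMIs, the share was 29.2% (26.7 to 31.7) in LEPR stromal cells and 18.2% (5.19 to 40.3) in 22 endothelial-like cells, with overlapping intervals. It was 3.82% (1.25 to 8.68) in 131 fibroblast-like cells. A single fibroblast-like cell held 49.6% of that class's Igfbp3 UMIs, and without it the level was 35.3 CPM, while CPM averaged cell by cell gave 113. A single endothelial-like cell held 38.2%, and without it the level was 124 CPM. In erythroid-like cells 1.00% had an Igfbp3 UMI.

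Igfbp6, whose product prefers IGF-II, ran the other way. Fibroblast-like cells had 764 CPM in lane 1 and 794 in lane 2, or 779.7 over both (721 to 842), while LEPR stromal cells had 2.65 and 3.66 CPM. The log2 ratio of LEPR stromal over fibroblast-like cells was -7.95 (-8.73 to -7.26), and fibroblast-like cells held 95.5% of all Igfbp6 UMIs. The 34 UMIs in the LEPR gate came from 3 cells, and Igfbp6 was seen in 61.6% of fibroblast-like cells, 0.160% of LEPR stromal cells and 0.156% of erythroid-like cells. The low levels of Igfbp6 in LEPR stromal, endothelial-like and megakaryocyte-like cells had overlapping intervals. Igfbp2, another binding protein with a preference for IGF-II, was near the limit of detection throughout. It gave 3.35 CPM in LEPR stromal cells from 18 cells, 3 UMIs from 1 endothelial-like cell that was called a doublet, 1 UMI in erythroid-like cells and none in fibroblast-like or megakaryocyte-like cells, where a count of 0 allows up to 3.58 and 1.72 CPM.

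**Figure D1:**
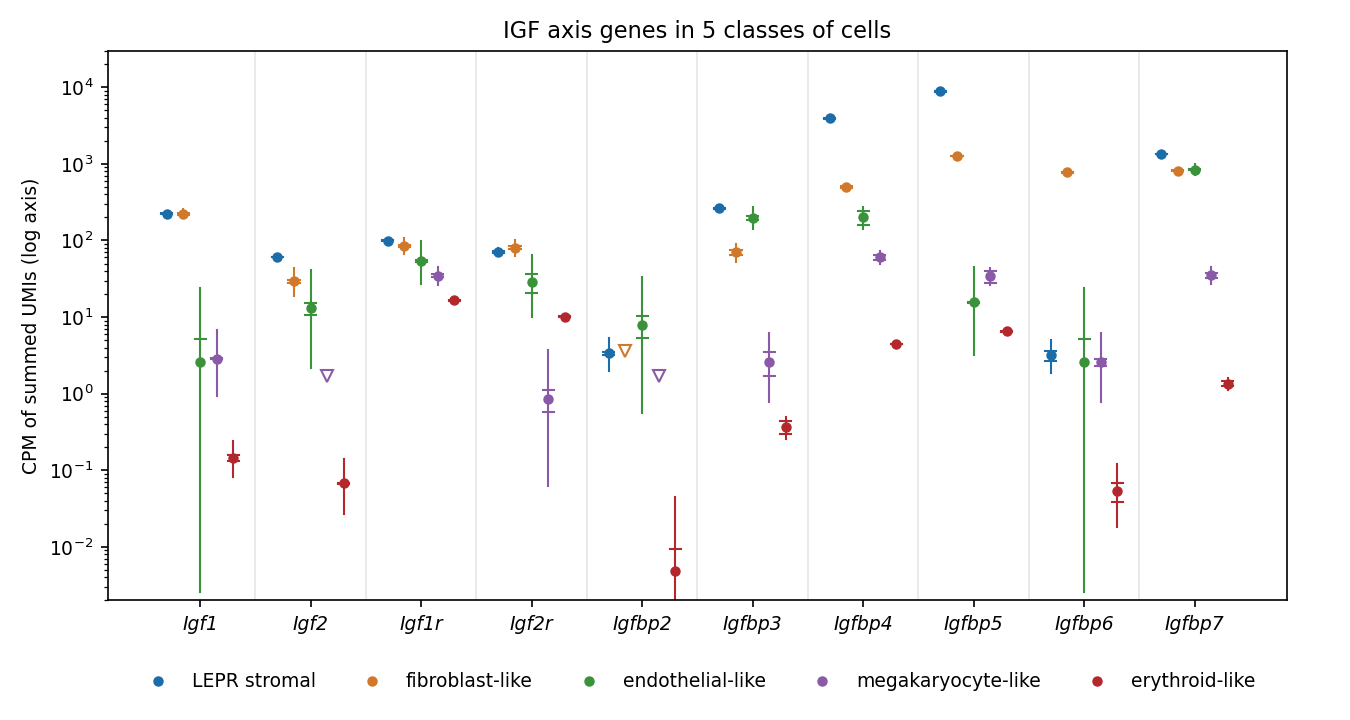
Level of each gene (CPM of summed UMIs, log axis) in 5 classes of cells. Points give both lanes together, vertical lines the 95% Poisson interval, short horizontal marks the level of each lane, and open triangles the limit that a count of 0 allows. Igfbp5 (8823 CPM) and Igfbp4 (3939 CPM) stand highest in LEPR stromal cells, Igfbp6 (779.7 CPM) in fibroblast-like cells, and Igf1r and Igf2r show the smallest distance between LEPR stromal and erythroid-like cells.

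The fibroblast-like class was itself mixed, and its IGF genes differed inside it. Of the 146 cells, 28 had a UMI of the osteoblast gene Bglap, 14 had a UMI of the pericyte gene Rgs5, and no cell had both. Igf1 had 292 CPM (250.2 to 339) in the 104 cells with neither and 38.1 CPM (14.7 to 80.5) in the Bglap cells. Igfbp6 likewise had 936 CPM (859 to 1017) in the former and 407 (317 to 515) in the latter, so both genes were highest in the cells carrying neither marker. Igfbp5 and Igfbp7 were instead highest in the Rgs5 cells, with 2592 and 2164 CPM, against 281 and 607 CPM in the Bglap cells. These groups were small and chosen after the data were seen.

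Members were also set against Cxcl12, which LEPR stromal cells carry at 22189 CPM. As a gene of the gate, Cxcl12 is raised in that class by the selection itself, so the ratios describe the classes and do not measure stromal RNA. Per 1000 Cxcl12 UMIs, LEPR stromal cells had 178 UMIs of Igfbp4, 398 of Igfbp5, 61.5 of Igfbp7 and 10.1 of Igf1, and erythroid-like cells 213, 313, 64.9 and 6.97, with intervals that overlapped for Igfbp7 and Igf1 but not for Igfbp4 and Igfbp5. Igfbp3 was at 11.8 (11.2 to 12.4) in LEPR stromal and 17.7 (12.5 to 24.3) in erythroid-like cells, and Igfbp6 at 0.143 (0.0830 to 0.228) and 2.56 (0.886 to 5.76). The receptors lay furthest apart, with 795 of Igf1r (746 to 848) and 484 of Igf2r (449 to 522) per 1000 in erythroid-like cells against 4.50 and 3.22 in LEPR stromal cells. Lepr, the other gene of the gate, was also at 377 against 70.7. Where the member UMIs of erythroid-like cells came from was not tested. Megakaryocyte-like cells had 486 Igf1r UMIs per 1000 Cxcl12 UMIs, and 847 of Igfbp4. Fibroblast-like cells had 1457 of Igfbp4, 3706 of Igfbp5 and 2405 of Igfbp7 per 1000.

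Counts of genes past 2-fold were read against all genes with a mean of at least 20 CPM in the pair of classes compared. Against fibroblast-like cells, 9 members passed that minimum, of which 4 were higher in LEPR stromal cells (Igf2, Igfbp3, Igfbp4 and Igfbp5) where 15.3% of all 6836 genes were, and 1, Igfbp6, was lower where 10.9% were and had passed only through its fibroblast-like level. Against endothelial-like cells 5 of 8 members (Igf1, Igf2, Igf2r, Igfbp4 and Igfbp5) were higher, where 23.4% of 6870 genes were, and none was lower (18.7%), but Igf1, Igf2 and Igfbp5 had reached 20 CPM only in LEPR stromal cells. The 8 members that passed against megakaryocyte-like cells were higher, where 31.2% of 6686 genes were higher and 22.9% lower, and Igf1, Igf2, Igf2r and Igfbp3 had reached 20 CPM only in LEPR stromal cells. The 8 that passed against erythroid-like cells were higher too, where 36.6% of 6399 genes were higher and 23.7% lower, and all 8 had reached 20 CPM only in LEPR stromal cells, so the minimum itself favoured this direction and these counts are no support for it. The median log2 ratios of the members that passed, to which the same applies, were 0.74, 1.77, 6.15 and 9.80 in these 4 comparisons, beside medians over all genes of 0.15, 0.05, 0.11 and 0.28. The comparisons share the LEPR stromal cells, and Igfbp2, which passed the minimum in none of them, is outside the counts, as is Igfbp6 outside the fibroblast-like comparison. Of the 10 members, 9 reached 20 CPM in some class and 6 of these had their highest level in LEPR stromal cells, where 32.4% of all 9106 such genes did. Among the 6, the intervals of Igf1r and Igfbp3 overlapped those of the next class, so these were not resolved as highest there.

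Within LEPR stromal cells, most single cells carried several binding-protein transcripts. In 1295 cells thinned to 2000 lane 1 UMIs, the median cell had 14 UMIs of Igfbp5 (10th to 90th percentile 3 to 38, highest 95), 7 of Igfbp4 (2 to 15) and 2 of Igfbp7. Each cell had at least 1 binding-protein UMI, and the 6 genes summed to a median of 27 UMIs (12 to 50). The variance of Igfbp5 was 11.1 times its mean, against 3.82 times for Igfbp4 and 1.37 for Igf1, where counting alone gives 1. This ratio grows with the mean, which was 18.0, 7.94 and 0.454 UMIs, so it does not rank these genes by how unevenly they were spread. Across these cells, which share a library and a depth, the Pearson r between Igfbp4 and Igfbp5 was 0.17 and between Igfbp5 and Igfbp7 -0.13, both weak. Igf1 was seen in 417 of these cells and Igf1r in 238, and 81 cells had both, beside the 76.6 that the product of the shares gives.

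LEPR stromal cells were clustered again with the members left out, which gave 8 sub-clusters, and their IGF genes differed in level. The 455 cells led by Lum and Ibsp, genes of bone matrix, had the highest Igfbp5 with 11614 CPM (11441 to 11790) together with 335 CPM of Igfbp3 and 1521 of Igfbp7. The 357 cells led by Serpina12 and Mrap had 6022 CPM of Igfbp5 (5874 to 6173), 2102 of Igfbp7 (2015 to 2192) and 86.8 of Igf2, and their 41.0 CPM of Igf2r was lower than the 78.6 of the other LEPR stromal cells. Igfbp5 and Igfbp7 thus had opposite orders between these sub-clusters, but not over all 8, of which the same pair, led by globin genes and by Mki67, was lowest for both genes. The 334 cells led by the immediate-early genes Fos and Egr1 had 2716 CPM of Igfbp4 (2609 to 2826) and 29.1 of Igf2, below the 4183 and 66.7 CPM of the others. The 528 cells led by Dnm3os and Chl1 had 931 CPM of Igfbp7 and 4668 of Igfbp4. Over these 4 large sub-clusters the highest level was 1.72-fold the lowest for Igfbp4, 1.93-fold for Igfbp5, 2.26-fold for Igfbp7 and 2.98-fold for Igf2, whereas Igf1 varied 1.40-fold and Igf1r 1.44-fold.

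Igf1 stood out in the smallest sub-cluster, 26 cells led by Sparcl1, Gsn, Cxcl14 and Spp1. They had 788 CPM of Igf1 in lane 1 and 789 in lane 2 (605 to 1011 over both), against 215 CPM in the other LEPR stromal cells, a log2 ratio of 1.88 (1.48 to 2.25). Igf1 was seen in 84.6% of them (median depth 5669 UMIs) and in 61.9% of the 21 cells that could be thinned to 2000 UMIs. Their Igfbp7 was also high, at 2683 CPM (2334 to 3071). Igf1 was itself the sixth leading gene of these cells although it had not been used to form them. A further 73 cells led by globin genes (median of 2231 UMIs and 9.71% mitochondrial UMIs) and 57 led by Mki67 and histone genes, of which 37 were called doublets, had the lowest Igfbp4 and Igfbp5, at 1339 and 4871 CPM and at 1685 and 3792 CPM.

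**Figure D2:**
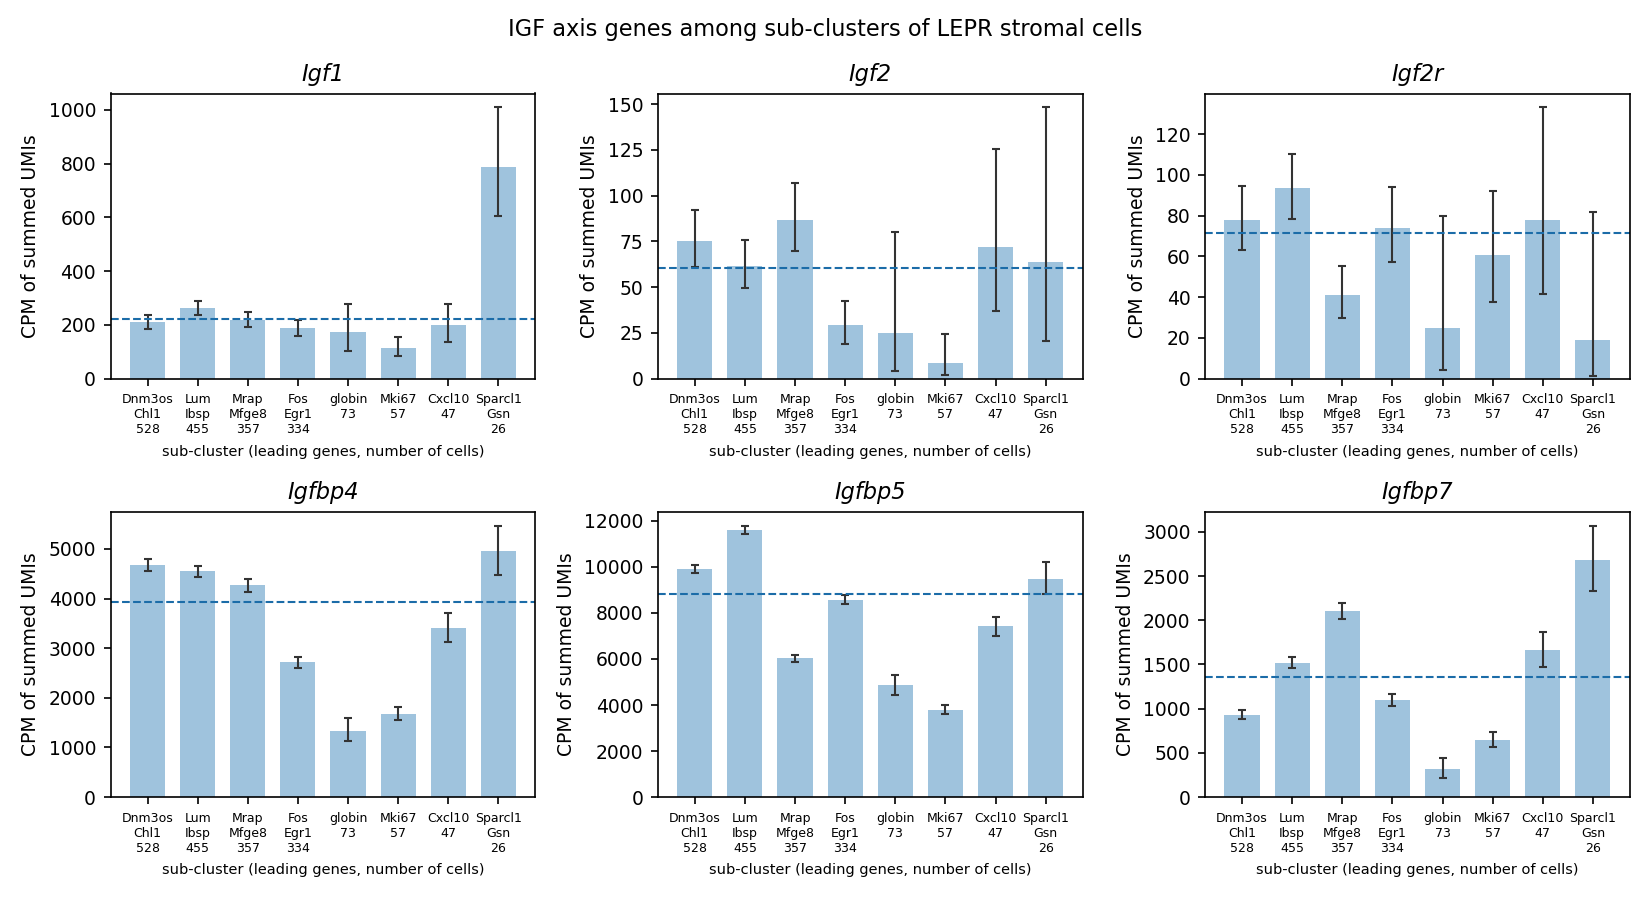
Level of 6 members (CPM of summed UMIs) in the 8 sub-clusters of LEPR stromal cells, each labelled by leading genes and number of cells. Bars give both lanes together, error bars the 95% Poisson interval, and the dashed line the level over all LEPR stromal cells. Igf1 reaches 789 CPM in the 26 cells led by Sparcl1 and Gsn, and Igfbp5 ranges from 3792 to 11614 CPM.

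In erythroid-like cells the receptor levels were compared between groups of cells with a rising share of UMIs from globin genes. In cells with a globin share under 0.5%, Igf1r had 23.8 CPM (21.9 to 25.8), then 19.6, 14.7 and 13.0 CPM with rising globin share, and 10.9 CPM (8.92 to 13.2) at 6% and over. Igf2r had 15.5 CPM (14.0 to 17.2), 14.4, 9.37, 6.59 and 4.09 CPM (2.91 to 5.59) over the same 5 groups. Both receptors were therefore lowest in the most globin-rich group, with a log2 ratio of the first group over the last of 1.13 for Igf1r (0.82 to 1.44) and 1.92 for Igf2r (1.44 to 2.44). Cxcl12 differed by 0.46 (0.22 to 0.71), while Igfbp5 differed by -0.05 (-0.45 to 0.37) and Igfbp4 by 0.25 (-0.26 to 0.78), so these binding proteins showed no detectable difference between the ends. Among the groups between, some intervals of these binding proteins did not overlap, though they cover counting error only and not the spread between cells. Igfbp5 had 9.32 CPM (7.60 to 11.3) at a globin share of 0.5 to 1% and 5.26 (4.47 to 6.16) at 2.5 to 6%. Igfbp4 had 5.36 CPM (4.48 to 6.37) under 0.5% and 3.61 (2.96 to 4.37) at 2.5 to 6%. A single erythroid-like cell held 51 of the 1345 Igfbp5 UMIs of the class. At 2000 UMIs per cell Igfbp5 was detected in 1.92% of cells under 0.5% and in 1.75% at 0.5 to 1%, although its CPM was 7.32 and 9.32. The part of single cells in these levels was not tested. Among cells with at most 10% mitochondrial UMIs, the log2 ratios of the first group over the last were 1.03 for Igf1r and 1.87 for Igf2r. Between the ends, Igf1r went from 1.53 to 2.67 UMIs per Igf2r UMI, with intervals of 1.34 to 1.75 and 1.83 to 3.96. Depth also differed between these ends, with medians of 10398.5 and 33553 UMIs, and at 2000 UMIs per cell Igf1r was detected in 5.02% and 1.60% of cells and Igf2r in 3.04% and 0.888%. Clusters kept this order in full for neither receptor, although Igf2r was lowest of all erythroid-like clusters in the one led by globin genes. Igf1r was 12.6 CPM in the 360 cells led by globin genes (median globin share 8.54%), 9.87 in 568 cells (3.71%) and 9.85 in 519 cells with a share of 0.104%, and Igf2r was 4.08, 7.75 and 6.51 CPM in the same clusters. Clusters with a share of 0.627%, 0.651% and 2.85% had 23.4, 18.2 and 14.8 CPM of Igf1r and 17.9, 13.1 and 7.37 of Igf2r. The highest Igf1r of any erythroid-like cluster, 41.8 CPM, was in 897 cells with a median of 11.9% mitochondrial UMIs, and the part of RNA quality in that value was not tested.

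**Figure D3:**
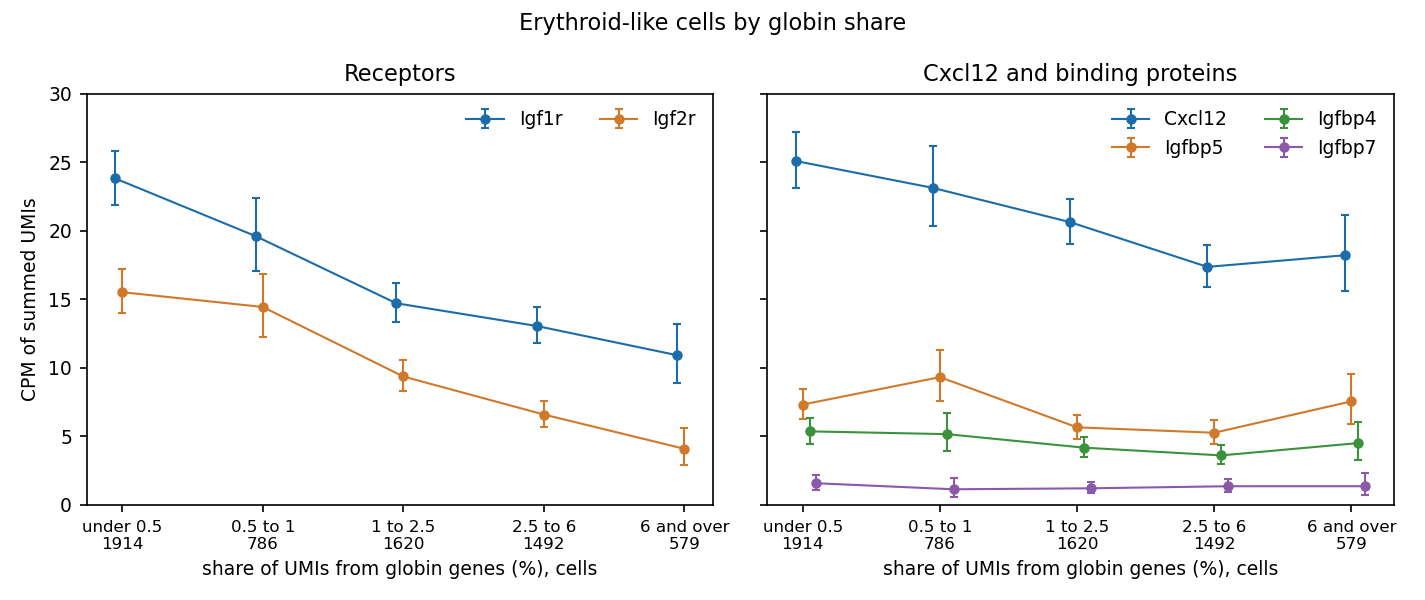
Levels (CPM of summed UMIs) in erythroid-like cells grouped by the share of their UMIs that came from globin genes, with the number of cells under each group. Points give both lanes together and error bars the 95% Poisson interval. Igf1r falls from 23.8 to 10.9 CPM and Igf2r from 15.5 to 4.09 CPM, while Igfbp4, Igfbp5 and Igfbp7 stay under 10 CPM in each group.

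Around the members, a list of 41 other genes of the pathway was examined, of which 26 reached 20 CPM in some class. Against fibroblast-like cells, 7 of 23 that could be compared were higher in LEPR stromal cells and 3 lower. The counts were 12 and 1 of 23 against endothelial-like, 14 and 2 of 24 against megakaryocyte-like and 13 and 0 of 20 against erythroid-like cells, with median log2 ratios of 0.30, 1.11, 1.65 and 1.70. Over all genes the shares higher and lower were 15.3% and 10.9%, 23.4% and 18.7%, 31.2% and 22.9%, and 36.6% and 23.7%, with medians of 0.15, 0.05, 0.11 and 0.28. Of the pathway genes compared, 2, 7, 12 and 9 had reached 20 CPM only in LEPR stromal cells. Pappa, whose product cleaves the Igfbp4 and Igfbp5 proteins, had 857 CPM in LEPR stromal cells (lanes 870 and 845) and 6.56 in fibroblast-like cells, a log2 ratio of 7.03 (5.86 to 8.56), so the protease transcript was found with its substrates' transcripts. Htra1, which encodes a second protease of IGF binding proteins, was lower in LEPR stromal than in fibroblast-like cells, at 101 and 202 CPM. Ghr, the growth hormone receptor, had 299 CPM in LEPR stromal and 65.6 in fibroblast-like cells. The adaptor genes downstream of the IGF-I receptor went opposite ways, with Irs1 at 82.3 CPM in LEPR stromal and 34.0 in fibroblast-like cells, and Irs2 at 24.2 and 66.8 CPM. The insulin receptor gene Insr was highest in endothelial-like cells, at 67.7 CPM. No UMI of Ins1, Ins2, Igfbp1 or Igfbpl1 was found in any class, and H19, which neighbours Igf2, had 11.3 CPM in fibroblast-like and 1.95 in LEPR stromal cells.

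Across the 16 clusters of all kept cells, the genes most like each member were sought by the Pearson correlation of log2 levels, as a description over clusters of a single library. Igfbp5 was closest to Gas6 (r of 0.994) and Csf1, and Igfbp4 to Gas6 (0.992) and to Igfbp5 itself (0.991). Igf1 was closest to the collagen genes Col6a2 (0.997) and Col6a1, Igfbp6 to Fxyd6 (0.979) and Pi16, and Igfbp7 to Plpp3 and Col4a1. Igf2 paired with Olfml2a and Prss23, Igfbp3 with Efnb1 and Lima1, and Igf1r with Pank3 (0.975) and Qsox1. The best matches of Igf2r, Ptpdc1 (0.928) and Sept4, and of Igfbp2, Lrg1 (0.935) and Ecscr, had the lowest r.

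In the GENCODE M21 annotation of GRCm38, the most abundant binding-protein gene of LEPR stromal cells has a scarce family member as its neighbour. Igfbp2 lies at chr1:72824503-72852474 on the plus strand and Igfbp5 at chr1:72857932-72874884 on the minus strand, so their 3′ ends face each other across 5457 bases. Adjacent position did not go with like levels, since LEPR stromal cells had 3.35 CPM of Igfbp2 and 8823 of Igfbp5. Igfbp3 at chr11:7206086-7213923 likewise has the undetected Igfbp1 beside it, 3539 bases away. Igfbp4 lies elsewhere on the same chromosome, at chr11:99041244-99054392. Genes on the opposite strand overlap Igf1 (Igf1os), Igf2 (Igf2os), Igf2r (Airn) and Igfbp7 (Polr2b and Gm34648).

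Because Igfbp4 and Igfbp5 were so much higher in LEPR stromal cells than elsewhere and followed each other over clusters, their promoters are shown. They are from RefSeq (GRCm38.p6), which had 14 promoter entries for the 10 members, and cover 250 bases before and 50 after the transcription start, read 5′ to 3′ on the strand of the gene, Igfbp4 at chr11:99040994-99041293 on the plus strand and Igfbp5 at chr1:72874816-72875115 on the minus strand. Capitals mark matches to the motifs searched on both strands, which were TATAAA, its longer relative TATTTAA, and an Ebf-type palindrome of TCCC and GGGA with 2 free bases between them.
Igfbp4: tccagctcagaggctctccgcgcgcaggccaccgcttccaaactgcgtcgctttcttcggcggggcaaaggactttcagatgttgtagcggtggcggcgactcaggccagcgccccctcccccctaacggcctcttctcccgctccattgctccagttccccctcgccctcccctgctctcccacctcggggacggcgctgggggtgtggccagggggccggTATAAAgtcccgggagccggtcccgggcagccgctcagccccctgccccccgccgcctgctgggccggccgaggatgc
Igfbp5: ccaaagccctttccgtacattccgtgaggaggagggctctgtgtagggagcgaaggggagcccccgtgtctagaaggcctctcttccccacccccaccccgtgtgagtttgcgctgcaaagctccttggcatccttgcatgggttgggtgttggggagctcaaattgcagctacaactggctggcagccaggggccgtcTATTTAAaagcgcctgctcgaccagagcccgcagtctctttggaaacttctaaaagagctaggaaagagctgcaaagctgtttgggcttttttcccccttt
The Igfbp4 promoter holds TATAAA and the Igfbp5 promoter TATTTAA, each upstream of the start. Among all 32851 promoters of the same length, 13.6% hold TATAAA and 4.51% TATTTAA on either strand, and a match is no more than a description of the letters. The Igfbp6 window also has a match to TATAAA, but on the strand opposite to the gene and further upstream than that of Igfbp4. The Ebf-type palindrome (0.904% of promoters) was in none of the members' windows. The GC content was 71.3% for Igfbp4 and 56.3% for Igfbp5, against a median of 52.7% over all promoters.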

How the data were processed

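The authors made the files with Cell Ranger (3.0.2 in the file header, v6.0.0 in the paper's methods) and deposited UMI counts for each gene in each barcode, unnormalized, from 2 lanes of 1 pooled sample (116827845 and 120556381 UMIs). The members and gene lists were chosen with earlier results of these data known. Lanes were summed per barcode, since both held the same cells. Cells with at least 200 genes and at most 20% mitochondrial UMIs were clustered in Seurat 5.3.0 (sctransform 0.4.2, R 4.3.3) on 3000 variable genes less the members, 30 principal components and a resolution of 0.8. Clusters were named from 20 marker lists by the list with the largest share of markers found, where a marker needed a UMI in 10% of cells and 25% of its highest CPM. A cluster stayed unnamed with fewer than 3 markers found, or with none of the list among its 10 leading genes where its median depth was under that of all cells divided by 3 or where markers of another list were among those genes. A cell past the LEPR gate counted as LEPR stromal whatever its cluster, so that 398 gated cells came from an unnamed cluster nearest to the LEPR+ stromal list and 132 from an unnamed cluster nearest to the erythroid list, in which Scrublet called 77 of 242 cells doublets.

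Sums, intervals and thinning used Python 3.11.15, numpy 2.4.6, scipy 1.17.1 and pandas 2.3.3, doublet calls scanpy 1.11.5, and plots matplotlib 3.10.9. Intervals (95%) are exact Poisson for levels, Clopper-Pearson for shares and conditional binomial for ratios, on the mean of the lanes for UMIs. Thinning used lane 1 alone. A count of 0 was given a limit of 3 counts. No p-value was computed, as there is 1 biological sample. Genes named are the members, the markers, the pathway list, globin genes, the 2 genes most like each member, the 5 leading genes of each cluster or sub-cluster, genes that overlap a member on the opposite strand, and Cd24a, Runx2, Cdkn1a and Cdkn2a. Cxcl14, Spp1 and the split by Bglap and Rgs5 were taken up after their values were seen. The functions were tested on simulated data. Alternatives were each lane alone, mitochondrial limits and gene minimums, doublets removed, other gates and cluster definitions, resolutions of 0.4 and 1.2, CPM averaged cell by cell, a 4-fold limit, other CPM minimums and thinning, and 4 more chosen after seeing the data. Gene positions are from GENCODE M21, which held 32158 of 32285 identifiers. The sample table had 0 other columns that were left unused.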

Additional observations from a re-analysis of the deposited data

How the results depend on the processing

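Intervals cover counting error in 1 pooled sample, so differences between mice, ages or treatments could not be measured. Endothelial-like levels rest on 63 cells, where a count of 0 allows up to 15.6 CPM and 1 cell, called a doublet, held 20.2% of the UMIs, and 73 of 800 levels of members moved beyond their interval under an alternative. No paired analysis was possible because the 3 mice were pooled before capture. Of 528 log2 ratios of members under the alternatives, 484 stayed within the interval of the main value, 43 moved beyond it, and 1 that had been past 2-fold reversed, namely Igf2r in LEPR stromal over endothelial-like cells, which was 1.32 from summed UMIs and -0.029 with CPM averaged cell by cell; the cause was not tested. The ratios of Igf1 and Igf1r over fibroblast-like cells, under 2-fold throughout, also changed sign, with ranges of -0.39 to 0.11 and -0.08 to 0.30. The widest move was that of Igfbp5 over endothelial-like cells, from 9.14 to 4.56 with classes taken from clusters alone. That setting returned 1 gated cell, called a doublet, to the endothelial-like class. Of 76 counts of members per class, 73 stayed within 1.5 times the main count. A 4-fold limit left 2 members higher than in fibroblast-like cells in place of 4, and the endothelial-like count was 3 in place of 5 with CPM averaged cell by cell and also with a minimum of 50 CPM. The number of members highest in LEPR stromal cells was 6 or 7 in all 16 alternatives. Igf2 in LEPR stromal over fibroblast-like cells fell under 2-fold in 5 alternatives, at 0.76 with a Cxcl12 gate of 2000 CPM, 0.88 at resolution 1.2 and 0.47 with CPM averaged cell by cell, and, in alternatives chosen after seeing the data, at 0.99 without gated cells of the unnamed cluster nearest to the erythroid list and 0.95 without fibroblast-like cells with a UMI of Bglap or Rgs5. Over endothelial-like cells, Igf2 was at 0.69 with CPM averaged cell by cell. The 2 other alternatives chosen after seeing the data, which added unnamed clusters to the erythroid-like cells or left out the sub-clusters led by globin or mitotic genes, changed no call.

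Shares of LEPR stromal cells with a UMI depend on depth by construction. In the 1295 cells with at least 2000 UMIs in lane 1, thinned to 2000, they were 32.2% for Igf1, 9.27% for Igf2, 18.4% for Igf1r, 12.3% for Igf2r, 29.2% for Igfbp3, 98.6% for Igfbp4 and 86.5% for Igfbp7. In the 1750 cells with at least 1000, thinned to 1000, they were 18.2% for Igf1, 5.49% for Igf2, 9.37% for Igf1r, 6.34% for Igf2r, 0.286% for Igfbp2, 17.6% for Igfbp3, 90.7% for Igfbp4, 94.5% for Igfbp5 and 64.4% for Igfbp7.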

Other observations

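Cells inside the LEPR gate were also split by UMIs of genes that the study uses to define cells. These groups are not the study's own populations, which rest largely on protein and combine more markers. The paper reports lower Lepr and Cxcl12, the genes of the gate used here, in its CD24-positive cells. The 160 LEPR stromal cells with a UMI of the cell cycle inhibitor gene Cdkn1a had 25.0 CPM of Igf2 (13.6 to 41.9) against 64.6 in the other 1717, a log2 ratio of -1.37 (-2.26 to -0.60). Their Fos was higher, at 1483 CPM against 351, as it was in the sub-cluster led by Fos and Egr1, where Igf2 was also low. Igfbp4 differed by -0.39 (-0.47 to -0.32) and Igfbp5 by 0.07 (0.03 to 0.12) between these cells, while Igf1 was higher by 0.31 (0.06 to 0.56). Igfbp6 was higher by 2.59, but only 3 cells of the gate had it and 1 of them held 20 of the 34 UMIs. That ratio therefore does not describe cells with Cdkn1a. The 303 cells with a UMI of both Cd24a and Runx2 had 41.9 CPM of Igf2 against 65.3, a log2 ratio of -0.64 (-1.12 to -0.19). The erythroid genes Hbb-bs and Klf1 had log2 ratios of 1.28 and 1.34, and the part of erythroid RNA in the difference was not tested. Igfbp4 (-0.30), Igfbp7 (-0.30), Igfbp5 (-0.17) and Cxcl12 (-0.26) were lower in these cells too. The intervals of the other members covered both directions, as for Igf1 at 0.04 (-0.17 to 0.24). The median depth of the 303 cells was 6423 UMIs, against 5020 in the others. Only 5 cells of the gate had a UMI of Cdkn2a, too few to tell their Igf1, at 323 CPM (105.0 to 755), from the 223 CPM of the rest.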
